A study of Mus musculus with 10 samples.

Results

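The keratin family was followed on 10 one-colour expression arrays of adult mouse ileum. Its members were all non-control probes whose gene name, in the array annotation of the rtTA +DOX files, is Krt followed by a digit, which leaves out the keratin-associated proteins (Krtap) and Krtcap genes. This rule gave 49 of 41174 probes, for 42 of the 27553 gene names on the array, of which 24 are type I and 18 type II keratins. The contrast of interest was between 4 keratins of simple epithelium (Krt8, Krt18, Krt19 and Krt20) and 5 of stratified epithelium (Krt4, Krt5, Krt6a, Krt13 and Krt14). A further 4 genes that RefSeq names as keratins (Krt12, Krt86, Krt88 and Krt90) carry clone names on the array and lie outside the rule.

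Keratins are the intermediate filament proteins of epithelial cells, and each filament is built from pairs of a type I and a type II chain. Simple epithelia such as the intestinal lining use Krt8 with Krt18, Krt19 and Krt20. Stratified epithelia use other pairs, among them Krt5 with Krt14 in basal cells and Krt4 with Krt13 in the upper layers of the oesophagus and mouth, and Krt6a appears in activated epidermis, oral epithelium and hair follicles. Hair, nail and parts of the tongue have hard keratins of their own, such as Krt35, Krt36 and Krt84.

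All mice were C57BL/6, aged 6 to 8 weeks, and each of the 5 groups had 2 arrays. TetON-Sox2 mice carry a Sox2 transgene that doxycycline (DOX) switches on. They were left untreated (Sox2 -DOX) or given DOX (Sox2 +DOX), at 2 mg/ml in drinking water with 1% sucrose over 2 days. TetON-Oct4 mice (Oct4 +DOX), mice with both transgenes (Sox2xOct4 +DOX) and controls with rtTA, the DOX-dependent activator, but without the Sox2 transgene (rtTA +DOX) received the same DOX water. The promoter driving rtTA was not given in the sources used here. Whether the 2 samples of a group were separate animals is also unstated in the labels, and the p-values reflect their spread alone, which may be technical. The ileum was taken whole, so fewer cells of a type and less RNA per cell cannot be told apart.

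The Sox2 -DOX and Sox2 +DOX arrays lay on slide 1, the rtTA +DOX and Sox2xOct4 +DOX arrays on slide 2, and the Oct4 +DOX arrays on slide 3. Comparisons of Sox2 +DOX with Sox2 -DOX and of Sox2xOct4 +DOX with rtTA +DOX were therefore within a slide, while in the others slide and group cannot be told apart. Sox2 +DOX differed from Sox2 -DOX in DOX and sucrose as well as in induction, and these cannot be told apart in that comparison. Between 63.5 and 70.5% of probes were well above background on an array. The probe for Pou5f1, the gene of Oct4, was well above background on the 4 arrays from mice with the Oct4 transgene and on no other. The Sox2 probe was well above background on none of the 10 arrays, with or without induction, and checks no label, since the transgene's extent was not given in the sources used here. All 11 ileal epithelium markers were well above background on both arrays of every group. The 9 skin and hair follicle markers were mixed. Flg, Flg2, Dsg1a and Serpinb12 were well above background on no array, Krtdap and Lce1a1 on 2 each, and Lor, Tchh and Krtap3-1 on all 10.

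The probes of Krt6a, Krt6b, Krt4 and Krt75 and the pair of Krt13 probes are shown by the leading 30 of their 60 bases, 5′ to 3′, since the results turn on what these oligonucleotides bind. The array annotation places the Krt6a probe at chr15:101518465-101518524, Krt6b at chr15:101507053-101507112, Krt4 at chr15:101747761-101748339 and Krt75 at chr15:101392444-101392503, in build mm8 and on the minus strand. The Krt13 probe 1, A_51_P307964, lies at chr11:99937247-99937306, and probe 2, A_52_P430886, at chr11:99935486-99935724, also on the minus strand.
Krt6a: agcaagaagagctacaggcagtgaattctg
Krt6b: accgtgaggcagaacctggagcctatgttt
Krt4: cgggcagagattgagaacatcaagaagcag
Krt75: taccagctagagtcaaagctcctctgtttc
Krt13, probe 1: ggcaacgagaagatcaccatgcagaacctc
Krt13, probe 2: gaaccacgaagaggagatgaaggaattcag
The Krt6a and Krt6b probes each shared at most 9 bases in a row with a probe of another keratin gene. Krt6a and Krt6b are near-identical paralogs, and how far each probe binds the other's RNA was not tested, so their values are uncertain as to which of the pair they show.

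Of the 42 keratins, 30 entered the test because some group had a probe well above background on each of its 2 arrays. Among the 12 others, 9 were above background on no array (Krt25, Krt28, Krt33a, Krt33b, Krt34, Krt42, Krt71, Krt76 and Krt82), Krt26 and Krt31 on 1 array each and Krt80 on 2. Of the 30 tested keratins, 16 were well above background on all 10 arrays. Levels below are log2 signals relative to the 75th percentile of the same array, and are compared between arrays for 1 probe at a time. A gene was called where its adjusted p from limma (Benjamini-Hochberg over all 19049 genes tested) was under 0.05. Each log2 change is given ± its standard error, with 2 arrays per group.

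In Sox2 +DOX ileum, 6 of 30 tested keratins rose and 3 fell, while none of the 4 simple keratins of the intestinal lining was called. Krt6a, Krt4, Krt87 (under an older name on the array), Krt79, Krt75 and Krt7 were higher than in Sox2 -DOX ileum, and Krt35, Krt84 and Krt27 were lower. Among the lists, 2 of 5 keratins of the stratified class and 1 of 10 other stratified keratins rose, and of 7 keratins of hair and root sheath 1 rose and 3 fell. These 9 of 30 tested keratins were called against 7.82% of all genes tested, with 3.03% of all genes called higher and 4.78% called lower. Of all genes called, 38.8% were higher, or 49.3% with normexp background correction and quantile normalization, under which 6 keratins were higher and 1 lower. The median log2 change of the tested keratins was 0.18, against -0.10 over all genes. Krt6a, Krt4, Krt87 and Krt75 entered the test only through groups with an induced factor, and Krt35 and Krt27 only through groups without induced Sox2. The filter thus favoured the direction of those calls.

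The 4 simple keratins showed no detectable change between Sox2 -DOX and Sox2 +DOX ileum. Krt8, the type II chain of simple epithelia, stood at 8.58 and 8.63 on the Sox2 -DOX arrays and at 8.22 and 8.24 on the Sox2 +DOX arrays. Krt18, its type I partner, stood at 6.51 and 6.64 without DOX and at 6.70 and 6.96 with it. The Krt8 values were a little lower with DOX and those of Krt18 a little higher, without overlap, but neither change passed the test. Krt19 overlapped between the groups, at 7.82 and 8.02 against 7.68 and 8.00. Krt20, the keratin of mature enterocytes and goblet cells, went from 7.78 and 7.80 to 7.36 and 7.50. The log2 changes of the 4 genes lay between -0.37 and 0.26, and the smallest adjusted p by limma was 0.49.

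The Krt6a probe read -7.94 and -6.97 on the Sox2 -DOX arrays, where it was not well above background, and 3.07 and 2.10 on the Sox2 +DOX arrays. The groups were far apart, and the log2 change was 10.04 ± 0.93 (limma adjusted p = 0.0018). Where a probe was not well above background on both arrays of the dimmer group, the fold is a lower bound, taken against the lowest signal well above background on each of those arrays or the probe's own signal if higher. On that footing Krt6a was at least 373-fold higher. Over the alternative settings its log2 change ran from 5.69 to 10.52.

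Krt4, the type II keratin of oesophageal and oral lining, read -8.10 and -7.95 without DOX, not well above background, and -1.89 and 0.08 with DOX. The arrays did not overlap, and Krt4 was at least 33.2-fold higher, with a log2 change of 7.12 ± 1.19 (limma adjusted p = 0.013). The remaining stratified keratins of the contrast were not called. Krt5, the basal type II keratin, stood at -4.97 and -5.34 against -4.35 and -4.79, a log2 difference of 0.58 ± 0.34 (limma adjusted p = 0.31). Krt14, its basal partner, overlapped between groups, at -4.52 and -4.25 without DOX and -2.45 and -4.80 with it.

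Krt13, the type I partner of Krt4, gave different readings with its 2 probes. Probe 1 was well above background on all 10 arrays and stood at 0.60 and 0.59 without DOX and at 1.03 and 1.95 with it, a log2 difference of 0.90 ± 0.47 that did not pass the test (limma adjusted p = 0.25). Probe 2 was well above background on only 2 of the 10 arrays, Sox2 +DOX replicate 1 at -1.91 and Sox2xOct4 +DOX replicate 1 at -4.80, and stood between -8.96 and -6.50 on the others. It was not tested for that reason, and the probes show no common Krt13 response.

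**Figure D1:**
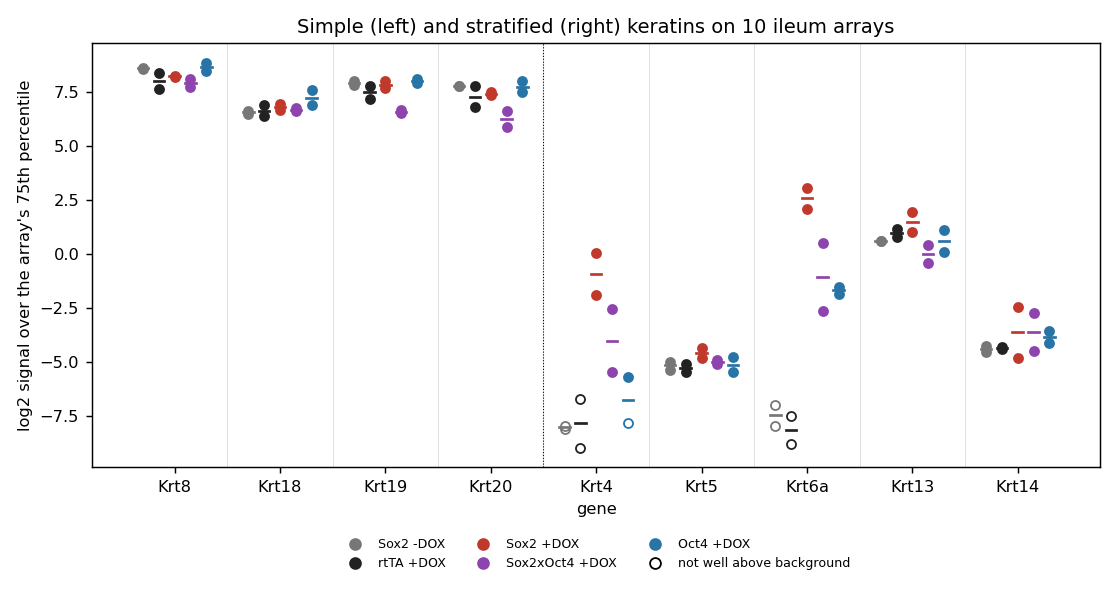
Log2 signal, relative to the 75th percentile of each array, for the 4 simple keratins (left of the dotted line) and the 5 stratified keratins (right) on the 10 arrays, with a horizontal bar at each group's mean of 2 and open circles for probes not well above background. Group means of the simple keratins lie closer together than those of Krt6a, which goes from -7.45 in Sox2 -DOX to 2.59 in Sox2 +DOX. Among them Krt20 goes from 7.79 in Sox2 -DOX to 6.25 in Sox2xOct4 +DOX. Levels of different genes are not comparable.

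Among the other type II keratins, Krt7, found in ducts and glandular simple epithelia, was high on every array. It rose from 4.99 and 5.14 without DOX to 6.74 and 6.96 with DOX, a 3.44-fold difference (log2 change 1.78 ± 0.37, limma adjusted p = 0.027). A separate Krt7 probe gave 2.18 ± 0.45 (limma adjusted p = 0.028), so both probes of this gene moved together.

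Krt79, found in the upper hair follicle and sebaceous ducts, read -3.67 and -4.10 without DOX and -0.69 and 0.19 with DOX, 12.5-fold higher (log2 change 3.64 ± 0.58, limma adjusted p = 0.012). Krt75, of the companion layer of the hair follicle, was not well above background without DOX, at -6.73 and -7.03, and read -3.37 and -3.21 with DOX. The difference was at least 6.36-fold (log2 change 3.59 ± 0.35, limma adjusted p = 0.0019). Both Sox2 +DOX values lay above all 8 other arrays. Krt75 entered the test only through Sox2 +DOX, so that separation follows in part from the filter and is no separate support. Krt87, a further type II keratin, went from -8.26 and -6.79, not well above background, to -4.50 and -1.40, at least 8.03-fold higher (log2 change 4.58 ± 0.89, limma adjusted p = 0.023). Its Sox2 +DOX arrays were far from each other, and the call was lost in 6 of the alternatives tried, with adjusted p between 0.052 and 0.15 there.

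Krt6b, the paralog of Krt6a, read 0.35 and -0.67 in Sox2 +DOX, above both Sox2 -DOX arrays, at -8.27 (not well above background) and -3.28. Those controls lay far apart, and the log2 difference of 5.62 ± 1.51 did not pass the test (limma adjusted p = 0.059). Krt23, a type I keratin, also missed it, at 1.13 and 0.81 without DOX and 3.49 and 3.75 with DOX (log2 difference 2.65 ± 0.79, limma adjusted p = 0.077). The 12 further tested keratins, among them the epidermal Krt1, Krt2 and Krt10 and the activation-linked Krt16 and Krt17, had log2 differences between -3.22 for Krt2 and 1.33 for Krt85, with none called. Of 2 Krt1 probes, the one read here was well above background on all 10 arrays but is annotated on the plus strand, opposite to the other Krt1 probe, which was above background on no array.

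Of the 7 tested keratins of hair and root sheath, 3 fell in Sox2 +DOX ileum and Krt75 rose, with a median log2 change of -1.60. Among all genes tested, 4.78% were called lower and 3.03% higher. Krt35, a type I hair keratin, went from -2.81 and -3.01 to -7.90 and -6.58, where it was not well above background, and was at least 10.8-fold lower (log2 change -4.33 ± 0.99, limma adjusted p = 0.037). Krt84, a type II keratin of nail and tongue papillae, went from -1.10 and -0.59 to -5.32 and -3.16, 10.5-fold lower (log2 change -3.39 ± 0.71, limma adjusted p = 0.029). Krt27, of the inner root sheath, went from -5.32 and -4.33 to -8.12 and -6.82, not well above background, and was at least 2.87-fold lower (log2 change -2.65 ± 0.63, limma adjusted p = 0.042). Krt27 and Krt35 were not called with normexp and quantile normalization, with no filter on dim probes, or with a floor under dim signals. Krt27 and Krt84 were not called with only the groups compared or with the authors' normalized values. Over the alternative settings the log2 change ran from -3.30 to -0.25 for Krt27, from -4.99 to -1.02 for Krt35 and from -4.48 to -1.82 for Krt84. All 3 lost their call when either Sox2 -DOX array or Sox2 +DOX replicate 1 was left out.

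By keratin type, of 14 tested type II genes, whose cluster is on chromosome 15, 6 rose and 1 fell, with a median log2 change of 1.55. Of 16 tested type I genes, on chromosome 11 apart from Krt18, none rose and 2 fell, with a median of -0.22. Over all genes tested, 3.03% were called higher and 4.78% lower, with a median of -0.1. The share called was 50% of type II and 12.5% of type I genes, against 7.82% of all genes. The risen genes included neighbours on the array's map: Krt7 next to Krt87, and Krt4 next to Krt79. Krt16 and Krt17, the type I partners of Krt6a, had log2 differences of 0.10 and -0.56 that did not pass the test.

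**Figure D2:**
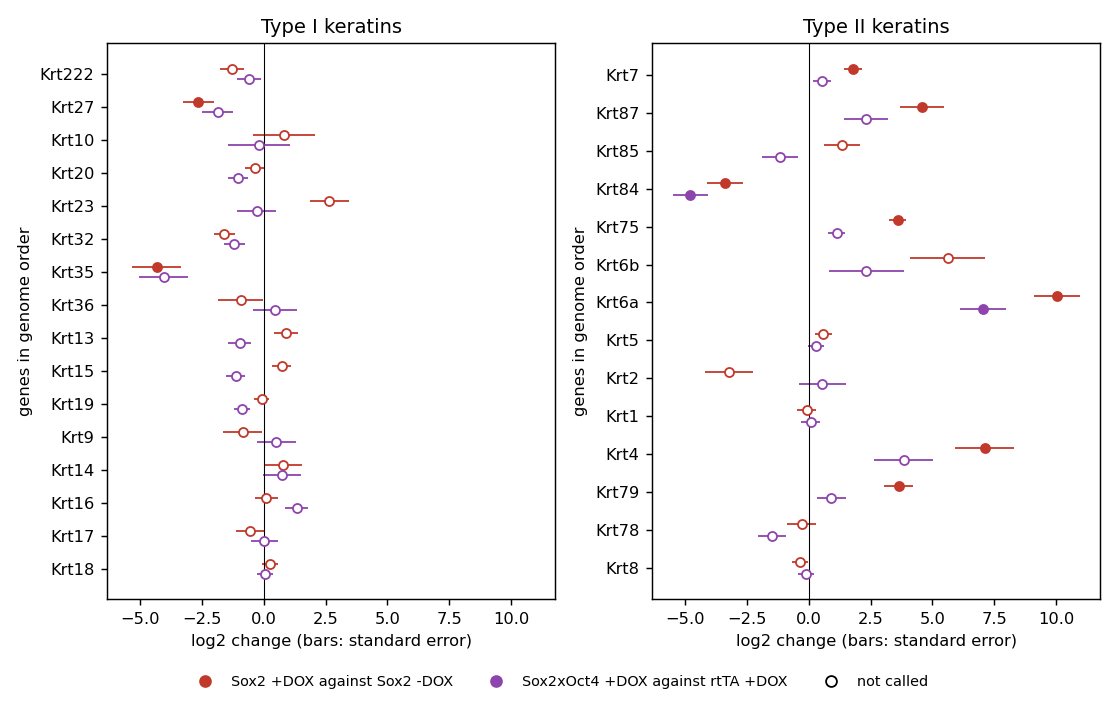
Log2 change with its standard error for the 30 tested keratins in genome order, type I on the left and type II on the right, for Sox2 +DOX against Sox2 -DOX and for Sox2xOct4 +DOX against rtTA +DOX; filled points are called and open ones are not. The 6 genes called higher in the Sox2 +DOX comparison are all in the type II panel.

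The promoters of these genes were looked at for letters that the induced factors are known to bind. RefSeq promoters were at hand for 28 of the 42 keratins and for 5 of the 9 called in the Sox2 +DOX comparison (Krt7, Krt27, Krt75, Krt79 and Krt84). The 250 bases before the start of Krt75, which rose, and of Krt84, which fell, are shown, from GRCm38.p6 at chr15:101573905-101574154 and chr15:101532821-101533070, both on the minus strand. Capitals mark the SOX-type core ACAATG or its reverse complement CATTGT.
Krt75: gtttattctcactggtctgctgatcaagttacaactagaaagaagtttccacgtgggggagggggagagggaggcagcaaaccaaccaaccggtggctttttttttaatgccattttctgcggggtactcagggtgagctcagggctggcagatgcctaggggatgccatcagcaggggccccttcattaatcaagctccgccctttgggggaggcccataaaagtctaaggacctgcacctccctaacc
Krt84: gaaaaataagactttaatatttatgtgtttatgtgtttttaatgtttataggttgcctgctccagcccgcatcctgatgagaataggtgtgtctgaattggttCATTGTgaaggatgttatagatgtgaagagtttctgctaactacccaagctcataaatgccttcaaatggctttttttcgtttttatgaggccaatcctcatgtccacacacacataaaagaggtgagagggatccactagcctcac
On both strands, ACAATG was present in 5 of 29 keratin promoters (Krt9, Krt23, Krt36, Krt42 and Krt84) and in 3512 of all 32851 promoter windows of the same length. In Krt84 its match began 147 bases before the start. The related core ACAAAG was present in 4 of 29 (Krt18, Krt25, Krt31 and Krt42) and in 5408 of all, and the octamer ATGCAAAT in none of the 29 and in 526 of all. Of the 5 called keratins with a promoter, Krt84 alone held any of these motifs, and no matches overlapped. A match describes the letters of this window only.

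With both transgenes induced, Krt6a rose and Krt84 fell, and no other keratin was called. These 2 of 30 keratins stood against 6.34% of all genes tested, with 3.19% called higher and 3.15% called lower, so the share of keratins called was near the background. The median log2 change of the tested keratins was 0.03, against 0.07 over all genes.

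Krt6a read -8.77 and -7.47 on the rtTA +DOX arrays, not well above background, and 0.51 and -2.63 in Sox2xOct4 +DOX ileum. The arrays did not overlap, although the induced arrays lay far from each other, and Krt6a was at least 51.1-fold higher (log2 change 7.06 ± 0.93, limma adjusted p = 0.0076). Krt4 read -8.97 and -6.68 in rtTA +DOX and -2.53 and -5.47 in Sox2xOct4 +DOX, without overlap, but the log2 difference of 3.83 ± 1.19 missed the threshold (limma adjusted p = 0.098). Krt13 probe 1 was lower, at -0.40 and 0.41 against 0.79 and 1.18, and did not pass the test. Krt5 and Krt14 had log2 differences of 0.29 and 0.74 that did not pass it either.

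Krt84 went from -0.65 and -0.67 in rtTA +DOX to -4.95 and -5.97 in Sox2xOct4 +DOX, where 1 of 2 arrays was well above background. The difference was 27.8-fold (log2 change -4.80 ± 0.71, limma adjusted p = 0.011). Krt35 went from -2.48 and -1.99 to -6.04 and -6.53, a log2 difference of -4.04 ± 0.99 that lay just past the threshold (limma adjusted p = 0.0502), and it was called under 7 of 14 alternative settings. Krt35 and Krt84 were thus low on all 4 arrays from DOX-treated mice with the Sox2 transgene, below every array of the other groups.

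Of the simple keratins, Krt19 and Krt20 were lower with both transgenes. Krt19 stood at 7.17 and 7.81 in rtTA +DOX and at 6.68 and 6.53 in Sox2xOct4 +DOX, a log2 difference of -0.88 ± 0.31 (limma adjusted p = 0.13). Krt20 stood at 6.81 and 7.78 against 5.87 and 6.64, a log2 difference of -1.05 ± 0.41 (limma adjusted p = 0.17). Neither pair of groups overlapped and neither passed the test, but with normexp and quantile normalization both were called, at adjusted p of 0.047 for Krt19 and 0.011 for Krt20. Krt8 and Krt18 overlapped between the groups, with log2 differences of -0.11 and 0.05.

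The responses to Sox2 alone and to Sox2 with Oct4 were set against each other, as their 4 groups share no array, but their controls were unlike. Sox2 -DOX mice carried the Sox2 transgene and had no DOX water, while rtTA +DOX mice had DOX water but no Sox2 transgene. A difference between the responses cannot be told apart from these differences between the controls. No keratin differed between the responses at the threshold, against 0.168% of all genes tested by limma, and 8 keratins differed at an unadjusted p under 0.05. The smallest adjusted p among keratins, 0.14, was that of Krt75, whose change was lower with both transgenes by 2.47 ± 0.49 on the log2 scale. For Krt6a the estimate was a difference in log2 change of 7.06 against 10.04, and for Krt4 of 3.83 against 7.12, neither past the test. These 3 keratins were not well above background in Sox2 -DOX or rtTA +DOX, so the differences rest on control readings below background, and that of Krt75 ran from -2.95 to -0.77 over the alternative settings. Median log2 change over type II keratins was 0.55 with both transgenes and 1.55 with Sox2 alone.

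**Figure D3:**
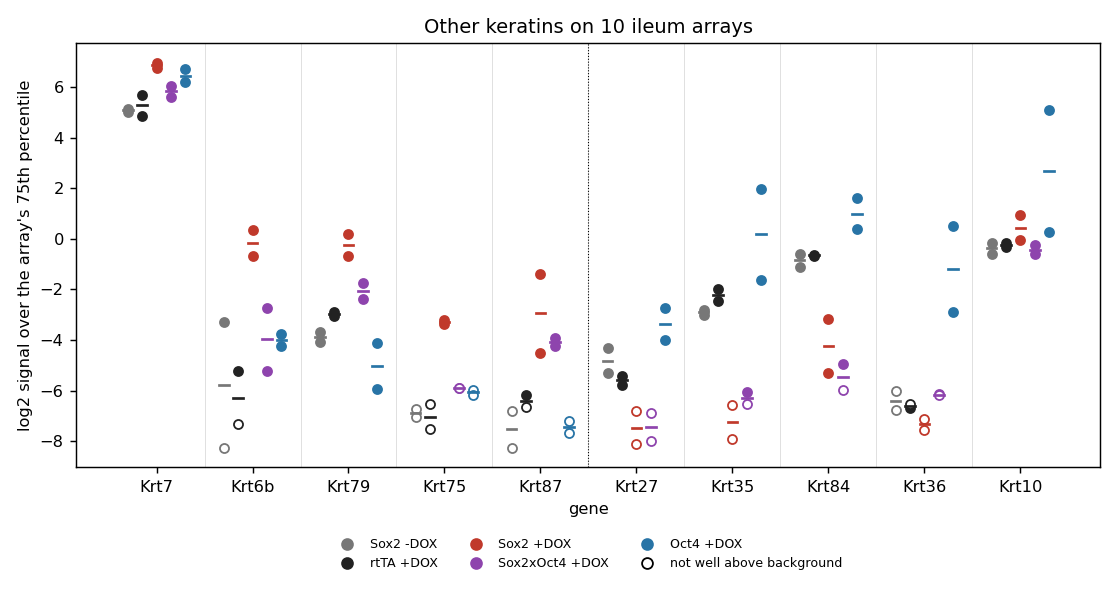
Log2 signal, relative to the 75th percentile of each array, for 5 keratins that were higher in Sox2 +DOX (left of the dotted line) and 5 that were lower there or high with Oct4 (right), with a bar at each group's mean of 2 and open circles for probes not well above background. Krt35 and Krt84 are lowest in the groups with induced Sox2, and Oct4 +DOX replicate 2 stands at 5.10 for Krt10, far from 0.28 in replicate 1.

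With Oct4 alone, Krt6a and Krt36 were higher than in rtTA +DOX, which are 2 of 30 keratins against 1.01% of all genes tested (0.724% higher and 0.283% lower). These arrays lay on different slides, so slide and group cannot be told apart. Krt6a read -1.82 and -1.51 in Oct4 +DOX, far above the rtTA +DOX arrays given above, and was at least 33.6-fold higher (log2 change 6.46 ± 0.93, limma adjusted p = 0.021). Krt6a was therefore well above background on all 6 arrays with an induced factor and on none of the 4 others.

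Krt36, a type I keratin of tongue papillae and hair, read -6.68 and -6.53 in rtTA +DOX, with 1 of 2 arrays well above background, and -2.90 and 0.50 in Oct4 +DOX. It was 42.5-fold higher (log2 change 5.41 ± 0.90, limma adjusted p = 0.037), and a separate Krt36 probe gave 4.87 ± 0.95, just short of the threshold (limma adjusted p = 0.061). The Oct4 +DOX arrays were far apart for several keratins. Replicate 2 stood above replicate 1 for Krt36, for Krt10 of suprabasal epidermis (5.10 against 0.28), for Krt35 (1.97 against -1.64) and for Krt23 (3.45 against 0.74). Krt10 and Krt35 were not called with both replicates (limma adjusted p = 0.36 and 0.34), and leaving out Oct4 +DOX replicate 1 added both to the calls and lost Krt6a. The summed level of 9 skin and hair follicle markers was 1.56 to 1.68 in Oct4 +DOX and 1.09 to 1.16 in rtTA +DOX, with 4 and 3 of the 9 well above background on both arrays. Tchh stood at 0.24 and 0.28 in Oct4 +DOX against -1.12 and -1.34 in rtTA +DOX. The brightest marker in rtTA +DOX, Krtap3-1, overlapped, at 0.71 and 0.86 against 0.65 and 0.78, as did Lor. Krtdap was well above background in Oct4 +DOX only. The part of these markers in the keratin values was not tested. The simple keratins of Oct4 +DOX ileum had log2 differences from rtTA +DOX of 0.45 to 0.65, none past the test.

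Sox2 +DOX ileum was also set against rtTA +DOX, where both had DOX but the slides differed and cannot be told apart from the groups. This comparison shares its Sox2 +DOX arrays with the Sox2 -DOX comparison, and its controls with both others. It called 8 of 30 keratins, against 8.38% of all genes tested (3.23% higher and 5.14% lower). Of all genes called, 38.6% were higher, or 49.6% with normexp and quantile normalization. Krt6a was at least 640-fold higher (log2 change 10.71 ± 0.93, limma adjusted p = 0.0012) and Krt4 at least 57.0-fold (6.92 ± 1.19, limma adjusted p = 0.014). Krt75 was at least 10.9-fold higher, Krt79 6.64-fold and Krt7 2.96-fold. Krt6b was also called here, at 70.2-fold with 1 of 2 rtTA +DOX arrays well above background (limma adjusted p = 0.045). Krt35 was at least 17.2-fold lower and Krt84 11.9-fold lower. Krt87 missed the threshold narrowly (limma adjusted p = 0.051), and Krt27 was not called.

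Between the control groups, rtTA +DOX and Sox2 -DOX, limma called no keratin and 0% of all genes tested, while 1068 genes and 1 keratin, Krt2, had an unadjusted p under 0.05. Krt2, of upper epidermis, stood at -4.06 and -3.78 in Sox2 -DOX, at -7.84 and -4.71 in rtTA +DOX and at -7.78 and -6.50 in Sox2 +DOX. With 13 genes called when only those 4 arrays were fitted, and 11 without the Oct4 +DOX arrays, the count of keratins remained 0. Krt6a and Krt4 were well above background on none of the 4 control arrays, with DOX or without.

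Averaged as classes, the stratified keratins varied more between groups than the simple ones. Each array's mean over a class was taken relative to the mean of the Sox2 -DOX arrays. The stratified class stood at 3.96 and 3.79 in Sox2 +DOX, 2.49 and 1.82 in Sox2xOct4 +DOX, 1.49 and 1.58 in Oct4 +DOX and -0.48 and 0.41 in rtTA +DOX. The simple class lay between -0.98 and 0.43 on all 10 arrays, lowest in Sox2xOct4 +DOX at -0.98 and -0.72. The simple minus stratified difference was -4.01 ± 0.26 (SD, n = 2) in Sox2 +DOX, -3.00 ± 0.66 in Sox2xOct4 +DOX, -1.33 ± 0.25 in Oct4 +DOX and -0.32 ± 0.13 in rtTA +DOX. No group overlapped another in this order. The genes of both classes were chosen with earlier results of these data known, and the groups lay on different slides. The order is therefore a description only and was not tested. The stratified average rests on Krt6a and Krt4, as the values above show, and on readings not well above background in the controls, so it shrank to -1.89 in Sox2 +DOX with normexp and quantile normalization.

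**Figure D4:**
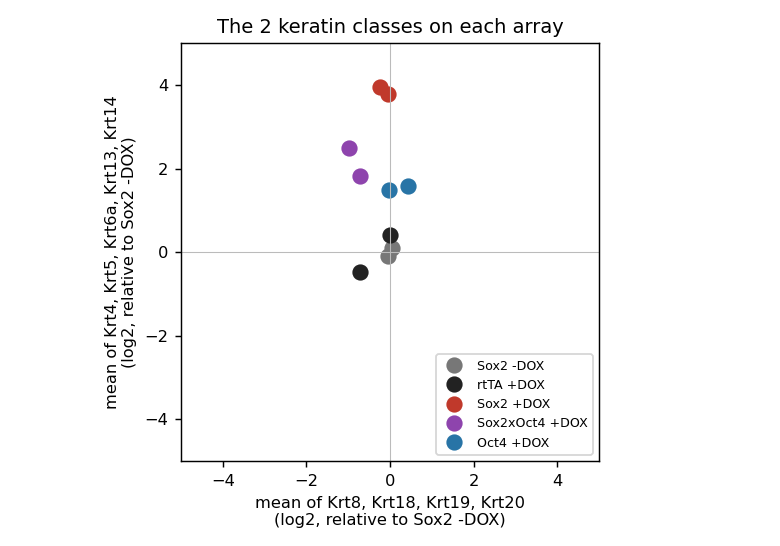
Mean log2 level of the 5 stratified keratins (vertical) against that of the 4 simple keratins (horizontal) on each of the 10 arrays, both relative to the mean of the Sox2 -DOX arrays. Groups with an induced factor separate along the vertical axis, up to 3.96 in a Sox2 +DOX array. The control groups overlap there, with Sox2 -DOX inside the rtTA +DOX range of -0.48 to 0.41. Along the horizontal axis the arrays span -0.98 to 0.43.

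Of 29 desmosome and keratin linker genes, 23 were tested, and in the Sox2 +DOX comparison 1 rose and 3 fell, against 7.82% of all genes tested, with a median log2 change of -0.46. Periplakin (Ppl), a linker of the cornified envelope, rose from -0.90 and -0.95 to 0.75 and 1.33 (3.90-fold, limma adjusted p = 0.028). Lamb3 and Lama3, chains of the laminin beneath hemidesmosomes, fell. Lamb3 went from 2.87 and 2.56 to -0.36 and 0.38 (6.54-fold, limma adjusted p = 0.0090) and Lama3 from 1.00 and 0.16 to -2.16 and -1.79 (5.87-fold, limma adjusted p = 0.042). Dystonin (Dst), which ties keratin filaments to hemidesmosomes, fell by 1.86 ± 0.36 on the log2 scale (limma adjusted p = 0.022).

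With both transgenes, the counts among linker genes were again 1 higher and 3 lower, against 6.34% of all genes tested, with a median of -0.58. Lamb3, Lama3 and Dst fell by 2.31, 2.67 and 1.78 on the log2 scale, and plakophilin 1 (Pkp1), a desmosomal plaque protein, rose 3.55-fold (limma adjusted p = 0.012). A list of other intermediate filament genes, such as vimentin and lamins, had 15 tested genes, and also held Eif3a, which encodes a translation factor. None of the 15 was called in either within-slide comparison, with medians of -0.39 and -0.33.

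Of the squamous epithelium markers other than keratins, 3 of 17 tested rose and none fell in the Sox2 +DOX comparison, against 7.82% of all genes tested, with a median of 0.38. With both transgenes 2 of the 17 rose, Trp63 and Fabp5, against 6.34% of all genes. With Oct4 alone, on another slide than its controls, 5 rose (Trp63, Dmkn, Krtdap, Lypd3 and Ly6d), against 1.01% of all genes, with a median of 0.63. Involucrin (Ivl), of the cornified envelope, read -8.08 and -7.92 without DOX, not well above background, and -1.77 and -2.23 with DOX, at least 15.5-fold higher (limma adjusted p = 0.023). Gsta4, a glutathione transferase, was 38.5-fold higher, and Fabp5, the fatty acid binding protein of keratinocytes, at least 3.02-fold. Ivl and Fabp5 entered the test only through Sox2 +DOX, Krtdap only through Oct4 +DOX, and Trp63 only through groups with induced Oct4. The filter thus favoured a rise of these genes in those groups, and their part in the counts is no separate support.

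Trp63, the transcription factor of basal squamous cells, was not well above background on the arrays of Sox2 -DOX, Sox2 +DOX or rtTA +DOX. It stood at -2.65 and -2.75 in Sox2xOct4 +DOX, at least 16.4-fold above rtTA +DOX (limma adjusted p = 0.0012), and at -3.67 and -4.93 in Oct4 +DOX. Its response differed between both transgenes and Sox2 alone (limma adjusted p = 0.023 for the difference), with the unlike controls described above. Krt5 and Krt14, keratins of the same basal cells, were not called in any comparison.

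Summed levels of markers of other cell types also differed between groups. Those in Sox2 +DOX against Sox2 -DOX were 8.74 to 9.35 against 9.89 for 11 ileal epithelium markers, 5.31 to 5.71 against 6.56 to 7.03 for 8 smooth muscle markers, and 1.55 to 2.56 against 4.29 to 4.64 for 7 adipocyte markers. For 8 T cell markers they were 0.89 to 1.51 against 2.96 to 3.29, for 8 of enteric neurons and glia 0.36 to 0.84 against 0.86 to 0.88, and for 8 of pancreatic acinar cells -0.77 to -0.69 against -1.11 to -0.99. Those of B and plasma cells (4.74 to 5.80 against 5.69 to 6.81) and of mesothelium (-0.10 to 1.44 against -0.58 to 0.47) overlapped. Among the 7 mesothelium markers, Msln was higher in Sox2 +DOX, at 1.17 and -0.92 against -1.01 and -2.72. Upk3b, Upk1b, Wt1, Lrrn4, Bnc1 and Gpm6a were each lower on both Sox2 +DOX arrays, and 3 of the 7 were well above background on neither. Summed levels for 9 skin and hair follicle markers were 1.20 to 1.31 against 0.51 to 0.59, with 3 of 9 well above background on both arrays in either group. The brightest of these, Krtap3-1, read 0.97 and 1.02 against 0.26 and 0.30. Lor read -2.02 and -3.83 against -4.41 and -4.81, and Tchh overlapped, at -2.50 on both arrays against -2.61 and -2.25. The 2 Sox2xOct4 +DOX arrays, which were apart for Krt6a and Krt4, were also apart for smooth muscle (5.23 and 8.34) and adipocyte markers (1.39 and 5.48). The part of these shifts in the keratin changes was not tested.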

How the data were processed

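RNA from adult mouse ileum was measured on 10 one-colour Agilent arrays, grouped by genotype, treatment and replicate in the labels. The deposited intensity values are the processed signals of Agilent Feature Extraction, background-subtracted and not normalized between arrays, per the file headers. Versions in the headers are 9.5.3.1, 10.7.1.1 and 10.7.3.1 for slides 1 to 3, and the submitters' processing notes name 9.1. A deposited table holds the authors' ratio values and their own normalized intensity for the 4 TetON-Sox2 arrays, with the steps behind it not given in the sources used here; it served as an alternative.

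Control spots and outlier flags were left out, spots of a probe averaged, and log2 signals taken minus each array's 75th percentile. A probe was kept if each of the 2 arrays of some group had it well above background (28752 probes), and the brightest stood for its gene, which gave 19049 genes, named through RefSeq where accessions matched (80.2% of probes). A single limma 3.58.1 fit (R 4.3.3) over all 10 arrays, 1 mean per group, had 5 residual degrees of freedom. The fit was tested on simulated data. Named keratins were those of the class contrast and every other one called in a comparison; other lists gave at most 4 called genes each. A few more, such as Krt2, Krt10 and Krt23, were named after their values were seen. The members and lists were chosen with earlier results of these data known. Sequences were copied from the array annotation and from RefSeq promoters. The number of arrays limits the precision: standard errors of log2 changes had a median of 0.39. Alternatives were another background correction, normalization, filter, floor, variance trend, choice of arrays and probes, replicate and slide blocks and leaving out arrays.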

Additional observations from a re-analysis of the deposited data

How the results depend on the processing

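Single-gene results were followed for 18 of the 30 tested keratins, those of the class contrast and the others called in a comparison. None of their 21 calls changed direction, while some differences that were not called crossed 0, such as that of Krt14 for Sox2 +DOX against Sox2 -DOX (-0.41 to 1.93). Of these calls, 4 stood under every alternative: Krt6a and Krt75 for Sox2 +DOX against Sox2 -DOX and against rtTA +DOX. The other 17 were lost under at least 1, and of 87 results not called, 8 were called under at least 1. Outside the 18, Krt2, Krt10, Krt23 and Krt222 were each called under at least 1. For Sox2 +DOX against Sox2 -DOX, leaving out an array gave 2 to 9 called keratins, with 2 without Sox2 -DOX replicate 1, 3 without its replicate 2 and 5 without Sox2 +DOX replicate 1. For Sox2xOct4 +DOX against rtTA +DOX the range was 0 to 2 (0 without rtTA +DOX replicate 1, 1 without its replicate 2), and 4 were called with only the groups compared or with quantile normalization. For Oct4 +DOX against rtTA +DOX it was 0 to 3 (0 without either rtTA +DOX array, 1 without Oct4 +DOX replicate 2), with 1 from only the groups compared and 0 with normexp and quantile normalization. For Sox2 +DOX against rtTA +DOX it was 2 to 6 (4 without Sox2 +DOX replicate 1, 2 and 3 without rtTA +DOX replicates 1 and 2). Fewer arrays leave a lone sample whose spread is assumed to be that of the other groups, and for the other settings the cause was not tested.

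The simple minus stratified difference was -1.89, -0.13, -0.39 and -1.28 in Sox2 +DOX, rtTA +DOX, Oct4 +DOX and Sox2xOct4 +DOX with normexp and quantile normalization, and -3.30, -0.10, -0.81 and -2.29 with signals raised to each array's lowest well-above-background signal. With the mean of all probes of a gene it was -4.28 in Sox2 +DOX.

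Deviations of same-numbered arrays correlated at -0.13 to 0.27 between groups, above 0.1 in 5 of 10 pairs of groups, so the replicate numbers were not taken to pair the samples. With the replicate number as a block, 9, 3, 2 and 10 keratins were called in the comparisons of Sox2 +DOX with Sox2 -DOX, Sox2xOct4 +DOX with rtTA +DOX, Oct4 +DOX with rtTA +DOX and Sox2 +DOX with rtTA +DOX, against 9, 2, 2 and 8 without it. The block added Krt35 in the second, and Krt87 and Krt27 in the last. With the numbers of Sox2 +DOX crossed, an alternative chosen after seeing the data, 7 were called in the last. A fit without the Oct4 +DOX arrays, also chosen after seeing the data, called 10, 3 and 7 keratins in the comparisons that do not use them.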
